A study of Mus musculus with 8 samples.

Results

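The epithelial sodium channel and its best-known regulators were described in 8 mouse mammary tumors, using 6 genes of the 22180 that could be named on the array. These were the channel subunits Scnn1a, Scnn1b and Scnn1g, the channel-activating protease Prss8, the ubiquitin ligase Nedd4l and the kinase Sgk1, each measured by 1 array row. Scnn1a was selected on its lower signal in the Cre-positive tumors, so its difference between the groups is given as a description without a test. The other 5 were chosen by their role, though with earlier results of these data known. All samples were mammary tumors of the groin and chest glands, from mice aged 3 to 4 months, of the congenic FVB/NJ strain. Every mouse carried MMTV-PyMT+, the polyoma middle T oncogene, and floxed Mmp14, written Mmp14(f/f). The 4 mice of the cKO group also carried MMTV-Cre+, whereas the 4 littermates called WT had no Cre and kept the floxed alleles. Cre, like the oncogene, is driven by the MMTV promoter, which is active mainly in mammary epithelium, and the presence of Cre and the deletion cannot be told apart between the groups. The samples were whole tumors, which also hold stromal and immune cells. For every value below, fewer cells of a type and less RNA per cell cannot be told apart.

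The channel, known as ENaC, is built from alpha, beta and gamma subunits, encoded by Scnn1a, Scnn1b and Scnn1g, and lets sodium enter epithelial cells through the apical membrane. Membrane-anchored proteases such as prostasin, the product of Prss8, raise its activity through cleavage. Nedd4l, also called Nedd4-2, binds the tails of the subunits and marks the channel for removal, and Sgk1, a kinase induced by corticosteroids, phosphorylates Nedd4l and thereby keeps channels at the surface. In kidney, lung and other epithelia the alpha subunit is itself induced by corticosteroids.

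Expression is given as log2 signal after RMA (robust multi-array average), so that a difference of 1 is a doubling of signal. The array medians lay between 3.64 and 3.71. The targeted gene Mmp14, a membrane-anchored matrix metalloproteinase, fell from between 8.86 and 9.31 in WT to between 7.44 and 7.98 in cKO tumors, a difference of −1.40 (SE 0.13, limma adjusted p = 0.0444 over 23521 rows). The labels number the arrays, and arrays 1 to 4 hold tumors 1 and 2 of each group while arrays 5 to 8 hold tumors 3 and 4. With these sets as a block the Mmp14 difference had an adjusted p of 0.0708. The call was also lost when any 1 of the 4 WT tumors, cKO 2 or cKO 4 was left out, with the highest adjusted p of 0.211 without cKO 4. Of 13 luminal epithelial markers measured, 12 had a mean signal of at least 5. Epcam ran from 10.5 to 10.6 in both groups, and Krt19 from 7.65 to 8.96 in WT and from 6.21 to 7.96 in cKO tumors. The exception was Foxa1, between 3.82 and 5.35 in WT and between 3.90 and 4.08 in cKO tumors.

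The alpha subunit had the widest spread of the channel genes. Scnn1a had log2 signals of 8.52, 6.94, 8.32 and 8.56 in WT 1 to WT 4. In the Cre-positive tumors cKO 1 to cKO 4 the signals were 6.20, 5.30, 5.17 and 6.04. All 4 cKO tumors lay below all 4 WT tumors, although WT 2 stood closer to the highest cKO tumor than to the other WT tumors. The WT mean was 8.09 ± 0.77 and the cKO mean 5.68 ± 0.52 (SD, n = 4 each). The difference of −2.41 (SE 0.38) left the cKO signal at 18.9% of that in WT, and it was the fifth lowest among the 23521 rows, of which 11 lay at −2 or below. Across the genome 1.73% of rows had all cKO values below all WT values. Because the gene was picked for this pattern, nothing is read from that share. The Scnn1a difference was −1.98 in the first set of arrays and −2.83 in the second, and it lay between −2.79 and −2.24 when single tumors were left out, with the lowest value without WT 2.

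The genes on either side of Scnn1a in the mouse genome differed little in signal. Its neighbour Ltbr, the lymphotoxin beta receptor, stood at −0.15 (SE 0.13) and Tnfrsf1a, a receptor of tumor necrosis factor, at −0.14 (SE 0.11). Plekhg6, the next gene along, stood at −0.24 (SE 0.15). The limma adjusted p of these 3 genes lay between 0.636 and 0.743.

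**Figure D1:**
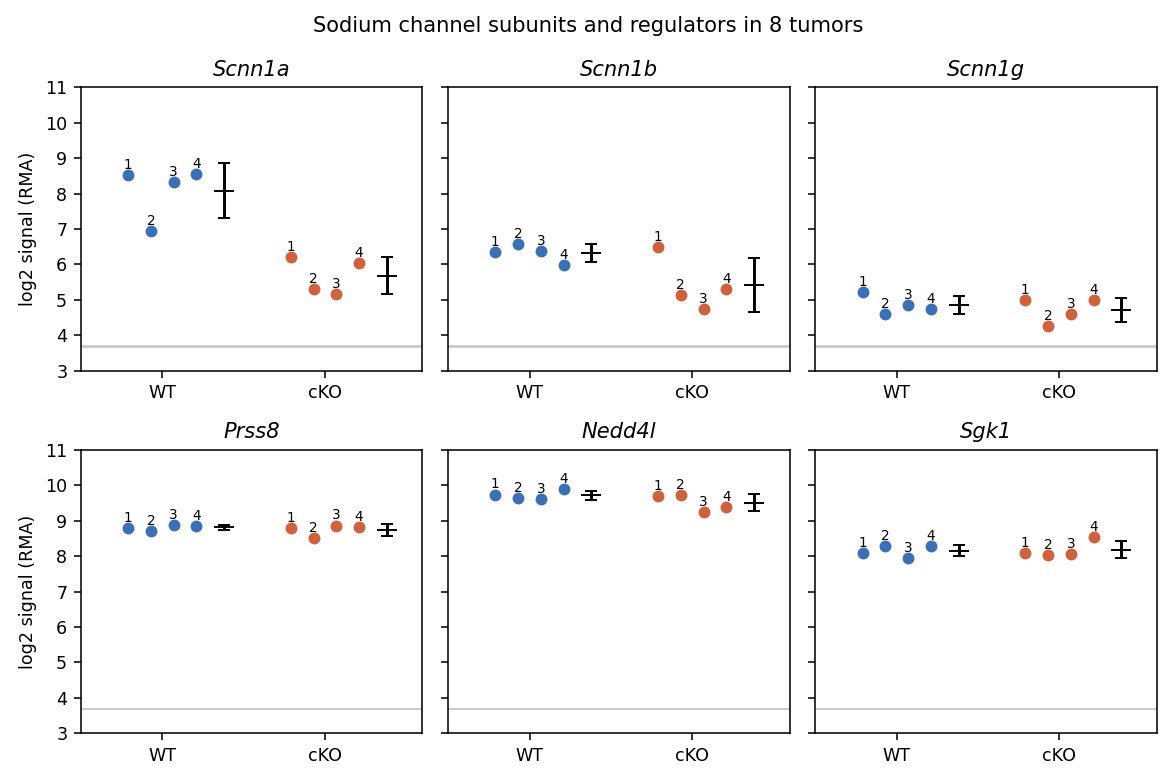
Log2 RMA signal (y axis) of the 6 genes in the 4 WT (blue) and 4 cKO (orange) tumors, with the replicate number above each point, the mean and SD as a black bar, and the range of the 8 array medians as a grey band. Scnn1a is separated between the groups, with WT 2 at 6.94, while cKO 1 at 6.50 lies among the WT tumors for Scnn1b and the groups overlap for the other 4 genes.

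The beta subunit was lower in 3 of the 4 cKO tumors and did not pass the test. Scnn1b had signals of 6.36, 6.58, 6.37 and 5.97 in WT 1 to WT 4. It had 6.50, 5.15, 4.73 and 5.31 in cKO 1 to cKO 4, so that cKO 1 lay within the WT range and the other 3 below it. The group means were 6.32 ± 0.25 and 5.42 ± 0.76 (SD, n = 4 per group). The Scnn1b difference of −0.90 had an SE of 0.33, a 95% confidence interval from −1.65 to −0.14 and a limma adjusted p of 0.448. Its unadjusted p was 0.0244, a threshold of 0.05 that 4.14% of all rows passed in this direction, and the exact two-sided permutation p was 0.114. Without cKO 1 the difference was −1.26, with an adjusted p of 0.194, and without cKO 3 it was −0.66. The tumor cKO 1 was thus below every WT tumor for Scnn1a, at 6.20, and within the WT range for Scnn1b, at 6.50.

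The gamma subunit was dim in both groups, and its groups overlapped. Scnn1g had signals of 5.21, 4.60, 4.86 and 4.73 in WT 1 to WT 4 and of 4.99, 4.27, 4.59 and 4.99 in cKO 1 to cKO 4. The difference was −0.14 (SE 0.19, 95% confidence interval −0.57 to 0.29, limma adjusted p = 0.847). Scnn1g and Scnn1b are adjacent protein-coding genes. On the other side of Scnn1b, Cog7, a subunit of a Golgi tethering complex, stood at −0.43 (SE 0.12, limma adjusted p = 0.318). Gga2, the next gene after Cog7, stood at 0.50 (SE 0.34), and Usp31, beyond Scnn1g, at −0.11 (SE 0.15). Whether the differences of Scnn1b and Scnn1g were unequal was not tested.

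Prss8 was the most even of the 6 genes. Its signals were 8.79, 8.71, 8.88 and 8.86 in WT 1 to WT 4 and 8.80, 8.50, 8.86 and 8.83 in cKO 1 to cKO 4, a range of 0.38 over all 8 tumors. The Prss8 difference was −0.06 (SE 0.10), with a 95% confidence interval from −0.29 to 0.16 and a limma adjusted p of 0.877.

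Nedd4l was low in only some of the cKO tumors. Its signals were 9.74, 9.64, 9.62 and 9.90 in WT 1 to WT 4. The cKO tumors had 9.70, 9.72, 9.24 and 9.38, so that cKO 3 and cKO 4 lay below all WT tumors while cKO 1 and cKO 2 lay among them. The Nedd4l difference was −0.21 (SE 0.13, 95% confidence interval −0.50 to 0.08, limma adjusted p = 0.634). It was 0.02 in arrays 1 to 4 and −0.45 in the other set, and −0.12 without cKO 3.

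Sgk1 did not follow the alpha subunit. Its signals were 8.08, 8.27, 7.96 and 8.30 in WT 1 to WT 4 and 8.09, 8.03, 8.06 and 8.54 in cKO 1 to cKO 4. The cKO 4 tumor had the highest signal of all, and the other 3 cKO tumors lay within the WT range. The Sgk1 difference was 0.03 (SE 0.13, 95% confidence interval −0.27 to 0.33, limma adjusted p = 0.964), and its sign turned to −0.11 within arrays 1 to 4 and to −0.09 without cKO 4. Of the 5 genes that could be tested, none passed the adjusted threshold of 0.05 in limma, which 0.0085% of all rows passed, and Scnn1b alone had an unadjusted p below 0.05.

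Because Sgk1 and Scnn1a are both known as corticosteroid-induced, the start regions of the members in the RefSeq set (GRCm38.p6, plus strand, 300 bases per window) were searched for the palindrome of the glucocorticoid receptor, AGAACA and TGTTCT spaced by 3 bases of any kind. RefSeq windows were at hand for Scnn1b, Scnn1g and 6 alternative starts of Sgk1, and the sequences below are shown to place that element. No window was at hand for Scnn1a, Nedd4l or Prss8, so those members were not searched. Each line gives the first bases of a window, not all 300. Capitals mark both arms of the palindrome, and neither the Scnn1g nor the Scnn1b line holds the palindrome or either arm.
Sgk1, chr10:21993640-21993789: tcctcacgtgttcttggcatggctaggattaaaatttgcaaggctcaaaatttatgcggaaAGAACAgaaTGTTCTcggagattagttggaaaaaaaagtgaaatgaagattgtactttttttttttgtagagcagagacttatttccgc
Scnn1g, chr7:121734229-121734419: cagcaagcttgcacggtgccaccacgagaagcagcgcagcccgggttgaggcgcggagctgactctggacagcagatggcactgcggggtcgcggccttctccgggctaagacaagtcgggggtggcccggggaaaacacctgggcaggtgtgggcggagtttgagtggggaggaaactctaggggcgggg
Scnn1b, chr7:121864788-121865037: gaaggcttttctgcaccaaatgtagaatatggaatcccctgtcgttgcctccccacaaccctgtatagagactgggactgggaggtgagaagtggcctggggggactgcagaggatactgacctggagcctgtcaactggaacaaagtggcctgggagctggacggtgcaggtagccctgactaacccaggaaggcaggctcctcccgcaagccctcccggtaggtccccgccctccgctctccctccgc
The Sgk1 palindrome, at 21993701 to 21993715, begins 189 bases before 1 of the 6 starts, and the Sgk1 stretch shown holds 1 further arm, left in lower case. Over all windows of the same length the palindrome was found in 3 of 32851, or 0.00913%. A single arm, on either strand and including those of the palindrome, was found in 19% (6233 windows). It was found in 3 of the 6 Sgk1 windows and in neither the Scnn1b nor the Scnn1g window. Of the corticosteroid target genes named below, Fkbp5, Klf9, Per1, Tsc22d3, Dusp1 and Errfi1 had windows in this set, none with the palindrome. Among them a single arm was found only in 1 of the 3 Tsc22d3 windows. A match describes the letters of the window, and its absence says only that they are not within it.

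The wider pathway was described with 6 lists of related genes, of which 81 of 86 members were measured. No member of these lists passed limma's adjusted threshold in either direction, and the smallest adjusted p was 0.383. At an unadjusted p below 0.05, 4 of the 81 were lower in cKO and none was higher, against 4.14% and 5.54% of all rows. All 4 WT values lay above all cKO values for 1 gene, Pdpk1, and below them for 1 gene, Ywhab, against 1.73% and 3.68% of all rows. The median difference of the 81 genes was −0.05, with 59.3% of them below 0, while the median over all rows was 0.02 and 43.5% of rows were below 0.

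**Figure D2:**
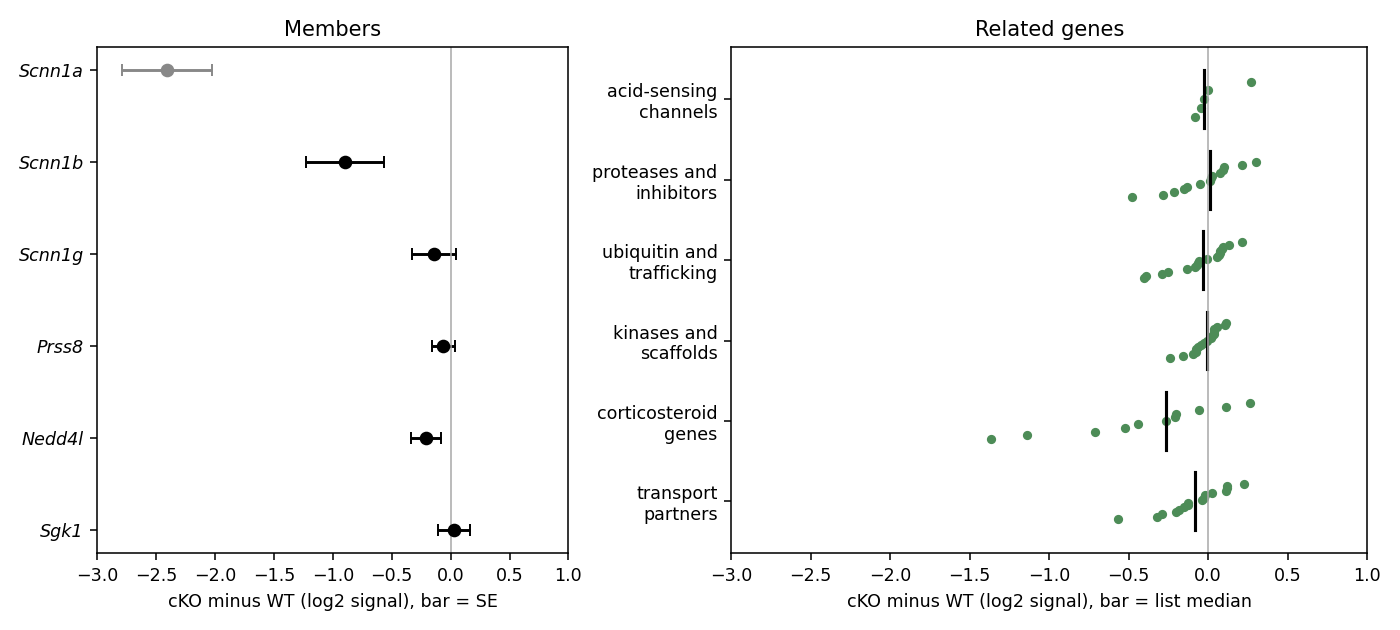
Differences in log2 signal between cKO and WT tumors (x axis, cKO minus WT) for the 6 genes with their SE at left, Scnn1a in grey because it was selected on this contrast, and for the 81 related genes at right, 1 point per gene with a black bar at each list's median. Scnn1a stands at −2.41 and Scnn1b at −0.90, and the list medians lie between −0.27 for the corticosteroid genes and 0.01 for the proteases.

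Of the proteases that cleave the channel and the inhibitors that restrain them, 14 were measured, with 6 lower and 8 higher and a median of 0.01. Furin, the convertase that cuts the alpha and gamma subunits inside the cell, stood at −0.22 (SE 0.15), and at −0.10 without cKO 2. The matriptase gene St14 stood at −0.13 (SE 0.09), and its inhibitors Spint1 and Spint2 at −0.05 and 0.07. Tmprss2, another membrane-anchored serine protease, had the smallest p of the list, at −0.48 (SE 0.19, limma adjusted p = 0.477), and the tissue kallikrein Klk1 stood at −0.28, from a WT mean of 3.43 near the array median. The acid-sensing channels, relatives of the sodium channel, were all below a mean signal of 5. Their median was −0.02, with Asic1 at −0.02, Asic2 at 0.27 and Asic3 at −0.09.

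Among ubiquitin and trafficking genes, 10 of 18 were lower and 8 higher, with a median of −0.03. Nedd4, the closest relative of Nedd4l, stood at 0.07 (SE 0.09). Usp2, a deubiquitinase that acts on the channel, stood at −0.40 (SE 0.25, limma adjusted p = 0.652), with cKO 4 at 6.27 and the other cKO tumors between 7.16 and 7.31. Ywhab, a 14-3-3 protein of the family that binds phosphorylated Nedd4l, was higher by 0.13 (SE 0.07, adjusted p = 0.586). Ndfip1, an adaptor of Nedd4-family ligases, stood at −0.25 (SE 0.14).

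Among kinases and scaffolds, 9 of 17 were lower and 8 higher, with a median of −0.01. Pdpk1, which activates Sgk1, had signals of 8.51, 8.47, 8.48 and 8.34 in WT 1 to WT 4 and of 8.30, 8.31, 8.27 and 8.29 in cKO 1 to cKO 4. The groups did not overlap, but the difference was −0.16 (SE 0.07, limma adjusted p = 0.534). Mtor, the catalytic subunit of the complex that also phosphorylates Sgk1, stood at −0.24 (SE 0.12). The Sgk1 relative Sgk3 stood at −0.03 and the kinase Wnk1, an upstream regulator of sodium transport, at −0.08.

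Among ion and water transport partners, 11 of 16 were lower and 5 higher, with a median of −0.08. Atp1b1, the beta subunit of the sodium pump, stood at −0.29 (SE 0.32), and at −0.10 without WT 3. The chloride channel gene Cftr had signals between 1.97 and 2.65 over the 8 tumors, under every array median, with a difference of 0.02. The cotransporter Slc12a2 stood at 0.12, the bicarbonate transporter Slc4a4 at −0.56 and the potassium channel Kcnq1 at −0.32, with limma adjusted p of 0.930, 0.712 and 0.604. Slc4a4 stood at −0.29 without cKO 2, and Kcnq1 at −0.16 without WT 2.

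In the corticosteroid list 3 of 11 genes were lower at an unadjusted p below 0.05, against 4.14% of all rows, and none passed the adjusted threshold. Its median was −0.27, with 9 of 11 members below 0, against 43.5% of all rows, and 2 above. The glucocorticoid receptor gene Nr3c1 was even, at −0.06 (SE 0.07), and the mineralocorticoid receptor gene Nr3c2 stood at 0.27 (SE 0.30). Hsd11b2, which inactivates glucocorticoids, stood at 0.11 (SE 0.18). Fkbp5, a co-chaperone of the receptor and a widely used glucocorticoid target, was lower by 1.14 (SE 0.37, limma adjusted p = 0.383). Dusp1, a phosphatase induced by glucocorticoids and by stress, was lower by 0.71 (SE 0.28, adjusted p = 0.470), and the clock gene Per1 by 0.44 (SE 0.19, adjusted p = 0.506). Tsc22d3, which encodes the glucocorticoid-induced leucine zipper, stood at −0.21 (SE 0.19, adjusted p = 0.768).

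Some of these targets shared the low value of Scnn1a in WT 2. Fkbp5 had signals of 8.43, 6.97, 8.47 and 8.53 in WT 1 to WT 4 and of 7.46, 7.19, 6.36 and 6.84 in cKO 1 to cKO 4. Zbtb16, a transcription factor known as a strong glucocorticoid target, had 8.04, 5.36, 8.004 and 8.34 in WT and 7.23, 7.22, 4.84 and 4.97 in cKO tumors. Klf9, another target, had 9.11, 8.25, 9.28 and 9.49 in WT and 8.70, 8.23, 8.69 and 8.42 in cKO tumors. Zbtb16, Klf9 and Per1 were singled out after their values were seen. In all 3 genes, and in Scnn1a, WT 2 was the lowest WT tumor. The Cre-positive tumors cKO 1 and cKO 2 lay below WT 2 for Scnn1a and above it for Zbtb16 and Per1, while for Klf9 cKO 1 was above WT 2 and cKO 2 slightly below it. The Fkbp5 difference was −0.38 in arrays 1 to 4, which include WT 2, and −1.90 in the other set. For Zbtb16 the 2 values were 0.53 and −3.26, opposite in sign. The median of the list was −0.12 and −0.53 in the same 2 sets of arrays, and −0.35 without WT 2. With tumors in separate groups, no pooled correlation with Scnn1a is given.

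**Figure D3:**
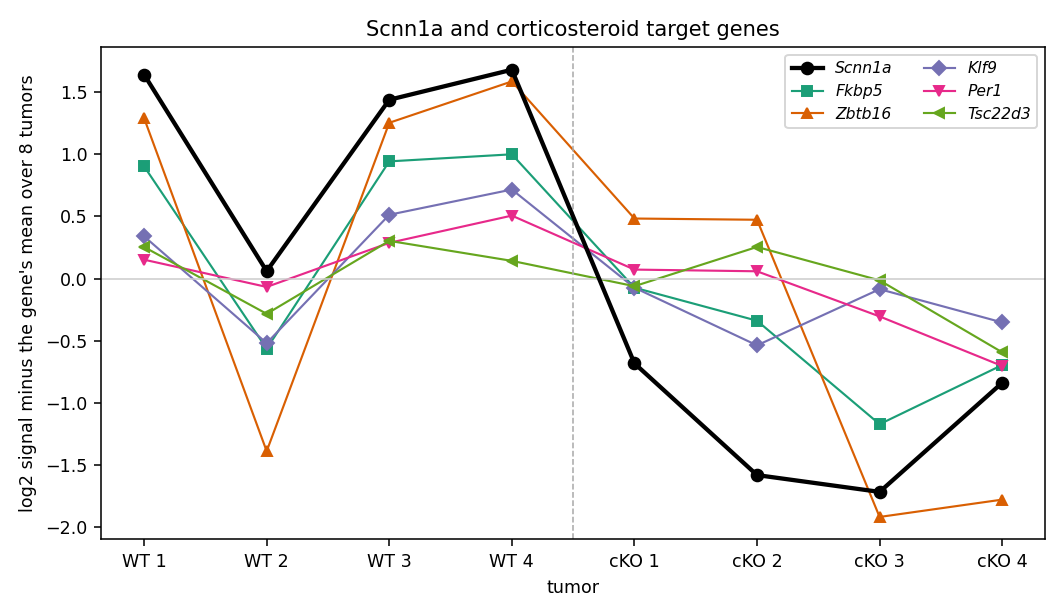
Log2 signal minus each gene's own mean over the 8 tumors (y axis) for Scnn1a (black) and 5 corticosteroid target genes in WT 1 to 4 and cKO 1 to 4 (x axis), with a dashed line between the groups. Lines join 1 gene's values and the order of tumors within a group carries no meaning. WT 2 is the lowest WT tumor for all 6 genes drawn, while in cKO 1 and cKO 2 Scnn1a lies below the other 5. Of the targets not drawn, Errfi1 was nearly equal in WT 2 and WT 3, its lowest WT tumors, at 9.492 and 9.498. Dusp1 was lowest in WT 3, at 7.73 against 7.86 in WT 2, and its highest cKO tumor was cKO 3, at 8.14.

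The genes whose profile over the 8 tumors lay nearest to that of Scnn1a were sought among 9966 rows. These were the rows left of 10408 whose brighter group averaged 5 or more. Scnn1a, predicted loci and genes named as olfactory or vomeronasal receptors, microRNAs or small nucleolar RNAs were left out. Likeness was the root mean square difference between log2 profiles after subtraction of each gene's mean, for which a flat profile would give 1.33. The nearest were Olah at 0.417, Sult1a1 at 0.501, Gprc5b at 0.596, Lao1 at 0.6004 and Fmo2 at 0.611. Olah, Sult1a1 and Fmo2 met that brightness limit through their WT mean alone, and the likeness of Olah rests in part on cKO signals near background, since 3 of its 4 lay below every array median. Olah encodes a thioesterase that ends medium-chain fatty acid synthesis in the mammary gland, and it belonged to the list of secretory alveolar markers. Its signals were 5.31, 4.09, 5.14 and 6.26 in WT 1 to WT 4 and 3.84, 3.19, 2.33 and 2.84 in cKO 1 to cKO 4. Sult1a1, a sulfotransferase, had 6.35, 5.37, 6.74 and 6.62 in WT and 5.58, 4.51, 4.04 and 4.67 in cKO tumors. Gprc5b is an orphan G protein-coupled receptor, with 7.33, 6.99, 7.68 and 8.29 in WT and 6.11, 5.68, 5.83 and 6.65 in cKO tumors. Lao1, an L-amino acid oxidase of milk, ran from 9.68 to 11.5 in WT and from 8.31 to 10.5 in cKO tumors. Fmo2, a monooxygenase, ran from 5.40 to 7.29 and from 4.16 to 5.81. These genes were picked for likeness to Scnn1a, so their group differences follow from the choice and were not tested.

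**Figure D4:**
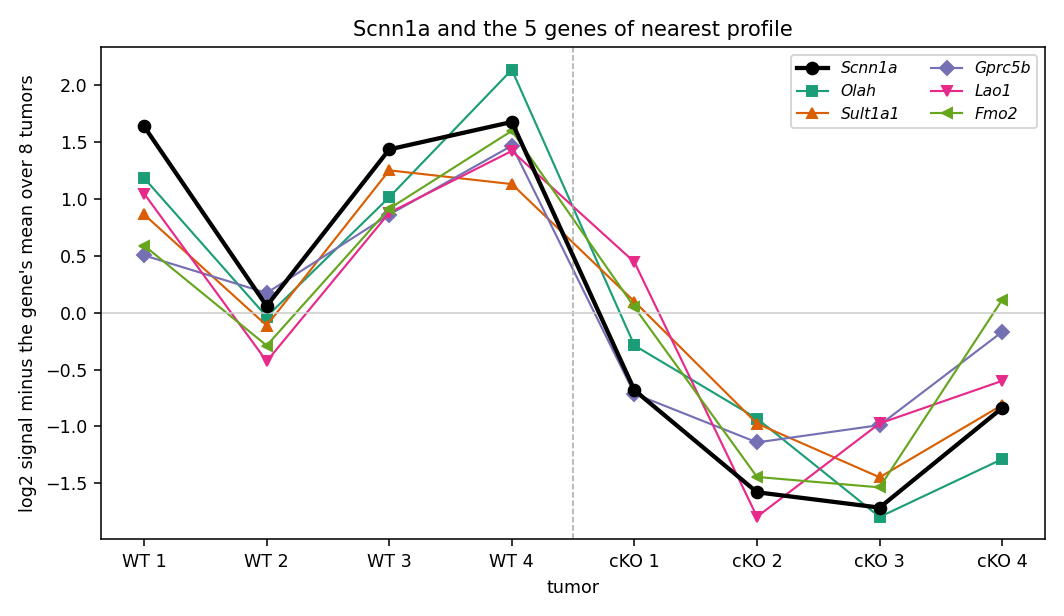
Log2 signal minus each gene's own mean over the 8 tumors (y axis) for Scnn1a (black) and the 5 genes of nearest profile, by tumor (x axis), with a dashed line between the WT and cKO groups. Lines join 1 gene's values, and tumor order within a group carries no meaning. In all 6 genes WT 2 is the lowest WT tumor, and cKO 1 is the highest cKO tumor in Scnn1a, Olah, Sult1a1 and Lao1.

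The other 5 members were compared among themselves over the 8 tumors in 10 pairs. Pearson's r ran from −0.26 to 0.63, and no pair passed by exact two-sided permutation with Benjamini-Hochberg adjustment or at an unadjusted p below 0.05, with r or with Spearman's rho. The beta and gamma subunits, Scnn1b and Scnn1g, had r = 0.49 (exact permutation p = 0.224, adjusted 0.747) and rho = 0.36 (exact permutation p = 0.389, adjusted 0.793). Without the 2 tumors farthest from the median of Scnn1b, r was −0.18, so the positive value rested on those tumors. Scnn1g and Prss8 had r = 0.63 (exact permutation p = 0.102, adjusted 0.526) and rho = 0.14 (exact permutation p = 0.752, adjusted 0.793), and r = 0.22 without the 2 farthest tumors. Scnn1b and Nedd4l had r = 0.62 (exact permutation p = 0.105, adjusted 0.526) and rho = 0.21 (exact permutation p = 0.619, adjusted 0.793), with r = 0.50 without the 2 farthest. These values pool both groups. With the group means removed, r was 0.41 for Scnn1b and Nedd4l, 0.44 for Scnn1b and Scnn1g and 0.60 for Scnn1g and Prss8, and the lowest of the 10 pairs was Nedd4l with Prss8 at −0.50, against −0.26 pooled.

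Markers of the cell types in whole tumors were set beside the members, as list scores, the mean over a list of each gene's log2 signal minus its own mean. Over all rows, 43.5% were lower in cKO tumors. The luminal epithelial markers were lower in 12 of 13 genes with a median of −0.20. Their scores ran from −0.03 to 0.41 in WT and from −0.29 to 0.09 in cKO tumors. The secretory alveolar markers were lower in 10 of 10 with a median of −0.45, and their scores ran from −0.03 to 1.02 in WT and from −1.25 to −0.07 in cKO tumors. Fibroblast markers were lower in 11 of 11, with a median of −0.92 and scores from 0.03 to 0.63 in WT and from −1.62 to 0.60 in cKO tumors. Macrophage markers were higher in 8 of 10, with a median of 0.40 and scores from −0.46 to 0.01 in WT and from 0.06 to 0.36 in cKO tumors. Basal and myoepithelial markers were lower in 7 of 9, with a median of −0.21 and scores from −0.17 to 0.21 in WT and from −0.58 to 0.11 in cKO tumors. Skin keratinocyte markers, lower in 7 of 10, had a median of −0.04 and scores from −0.14 to 0.52 in WT and from −0.11 to 0.01 in cKO tumors, and 1 of these 10 had a mean signal of at least 5. Endothelial markers were lower in 8 of 8 with a median of −0.28, adipocyte markers in 3 of 7 with a median of 0.12, and skeletal muscle markers in 5 of 7 with a median of −0.33. The tumor WT 2, the lowest WT tumor for Scnn1a, had the highest muscle score of all, at 1.38, and the highest fibroblast score, at 0.63. The tumor cKO 3, lowest for Scnn1a, Scnn1b and Nedd4l, had the lowest scores for fibroblasts, at −1.62, basal cells, at −0.58, endothelium, at −0.52, adipocytes, at −0.50, and muscle, at −0.60. For luminal epithelial and secretory alveolar markers cKO 3 was not the lowest, at −0.23 and −0.59. None of these markers passed limma's adjusted threshold, which 0.0085% of all rows passed. The part of these cell types in the Scnn1a and Scnn1b values was not tested.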

How the data were processed

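Each of 8 tumors contributed 1 Affymetrix array, hybridised with biotinylated cDNA from 400 ng of total RNA, as the labels' protocols state. The authors deposited log2 signals, and the submitters' processing notes name RMA and limma. Versions, parameters and the genome build: not given in the sources used here. Array number limits the precision. Rows with 1 gene symbol (23521 of 41345, with 1814 holding several symbols and 16010 unnamed here) entered a two-sided limma fit of cKO minus WT (version 3.58.1, R 4.3.3, lmFit and eBayes), with Benjamini-Hochberg adjustment over all of them and a threshold of 0.05. For 23328 rows the symbol came from the RefSeq table of GRCm38.p6 by gene ID. A gene with several rows was shown by the brightest. The labels call the tumors biological replicates, and no 2 arrays shared identical values in more than 0.058% of rows. The fit was tested on simulated data with independent normal noise. Such data follow the assumptions of the fit and cannot show whether these tumors meet them.

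The members and lists were chosen with earlier results of these data known. Named genes were the 6 members, Mmp14, 18 related genes fixed by role of which 17 were measured, the 2 of smallest p in each related list, and the 5 of nearest profile to Scnn1a. Alternatives were other normalizations, priors, filters, weights, blocks, averaging over a gene's rows and leaving out each tumor.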

Additional observations from a re-analysis of the deposited data

Results flagged for a closer look

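Single tumors stood apart from the rest of their group, with a gap past Dixon's critical value, in 8 of 86 groups of 4 (43 genes), where chance gives about 5% of groups and 5.4% of the groups over all 23521 signals tested did so. Some of the 43 genes were picked for a likeness to Scnn1a or after their values were seen, Zbtb16 among them, so the count is a description. In 3 of the 8 the tumor was WT 2. Scnn1a was at 6.94 in WT 2 and between 8.32 and 8.56 in the other WT tumors, Fkbp5 was at 6.97 against 8.43 to 8.53, and Zbtb16 at 5.36 against 8.004 to 8.34. In another 3 it was cKO 4, with Sgk1 at 8.54 against 8.03 to 8.09 in the other cKO tumors, Usp2 at 6.27 against 7.16 to 7.31, and the ligase adaptor Ndfip1 at 8.36 against 8.71 to 8.76. In the last 2 it was WT 4, with Hsd11b2 at 4.16 against 3.70 to 3.76 and Klk1 at 3.08 against 3.51 to 3.60. Without WT 2 the difference of Scnn1a was −2.79 and that of Fkbp5 −1.52. Without cKO 4 the difference of Sgk1 was −0.09 and the Usp2 difference −0.16.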

How the results depend on the processing

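The Scnn1a difference lay between −2.83 and −1.98 over the 19 alternatives. Because Scnn1a was selected on this contrast and its groups did not overlap, no set of arrays or omitted tumor could turn its sign. The Scnn1b difference kept its sign in all 19, between −1.26 and −0.64, with limma adjusted p from 0.194 to 0.879. The filter, the priors, the blocks and averaging over a gene's rows left both differences unchanged. Each member had 1 row, and those settings say nothing about the sign of either difference. No tested member and no related gene passed the adjusted threshold under any alternative, and no member pair passed in any correlation setting. Same-numbered tumors deviated from their group means with r = −0.0077, −0.19, 0.30 and −0.24, and number 3 alone correlated best with its own number. With so few pairs, these values cannot show whether same-numbered tumors were paired by litter or handling. With the replicate block the adjusted p of Scnn1b was 0.553, the block changed no call of the members or lists, and calls over all genes went from 2 to 0, the Mmp14 difference included (0.354). Those calls numbered 3 with arrays shifted to 1 median, 1 with the robust prior or the array block, 0 within either set of arrays and 0 to 3 with 1 tumor left out. Within arrays 1 to 4 Sgk1 turned to −0.11 and Nedd4l to 0.022. There, too, Spint1 was at 0.047, Nedd4 at −0.084, Sgk3 at 0.11, Nr3c2 at −0.48, Tsc22d3 at 0.11, Cftr at −0.14, Slc12a2 at −0.15, Asic2 at −0.0066, Zbtb16 at 0.53 and Per1 at 0.023. Within arrays 5 to 8 Asic1 turned to 0.39, Wnk1 to 0.13, Hsd11b2 to −0.054 and Asic3 to 0.014. The cause of these turns was not tested. Leaving out single tumors moved Scnn1g between −0.24 and 0.0052, Sgk1 between −0.089 and 0.080, and Prss8 between −0.099 and 0.022. Among related genes, Asic1 then lay between −0.22 and 0.18, Spint2 between −0.015 and 0.13, Sgk3 between −0.16 and 0.053, Wnk1 between −0.19 and 0.024, Hsd11b2 between −0.0094 and 0.27, Cftr between −0.089 and 0.14, and Slc12a2 between −0.11 and 0.32. Of 43 named differences, 27 moved by over 1.5 times or turned when 1 tumor was left out. Related genes lower at an unadjusted p below 0.05 numbered 4, and 7 within arrays 5 to 8. They numbered 2 to 6 with 1 tumor left out, with 2 without WT 1, WT 3 or cKO 4 and 6 without WT 2. Those higher numbered 0, then 1 within arrays 1 to 4, 3 within arrays 5 to 8 and 0 to 1 with 1 tumor left out. Scnn1g, the acid-sensing channels, Klk1, Hsd11b2 and Cftr have no value under the filter on dim signals. Dim signals such as those of Cftr and the acid-sensing channels cannot be told from background here, which limits what their differences show.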

Other observations

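Some transport genes varied between tumors more than between groups. Slc9a3r1, which encodes the scaffold NHERF1 of apical transporters, ran from 8.90 to 9.91 in WT and from 8.41 to 10.7 in cKO tumors. Aqp5, an apical water channel, was highest in WT 2 at 11.1 and in cKO 2 at 10.8 within their groups. The sodium pump subunit Atp1b1 was at 10.2 and 10.4 in WT 1 and WT 2 against 11.2 and 10.7 in WT 3 and WT 4. In cKO 1 and cKO 2 it was at 9.76 and 9.88, against 10.8 and 10.9 in cKO 3 and cKO 4, so that in both groups the tumors of arrays 1 to 4 were the lower.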
